A study of Mus musculus with 6 samples.

Results

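LOW_20 is a cluster of 90 neonatal cells from the mouse striatum that the study left without a cell type because established lineage markers were low in it. Its members were the cells that carried this cluster name in the deposited cell annotation, and they made up 90 of 14373 annotated cells in the whole series. The series measured the transcriptomes of single cells by droplet sequencing (10x Chromium, with mRNA counted from its 3′ end) after enrichment with magnetic beads against the astrocyte surface antigen ACSA2. The 3 libraries from postnatal day 3 (P3) and the 3 libraries from 3 months (3m) came from wild-type male C57BL/6 mice. Every library is a separate preparation in which the striata of several animals were pooled, with the subventricular zone cut away, so that animals cannot be told apart within a library. The labels describe no transgene, deletion or drug in either group. Beside the astrocyte clusters, the P3 cells formed endothelial, mural, microglial, oligodendrocyte precursor and neuronal clusters. LOW_20 is compared here with the 16 other clusters that held at least 50 P3 cells.

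The genes that follow belong to a few cellular systems. Ribosomal protein mRNAs encode the protein parts of the small and large ribosomal subunits, are abundant in the cytoplasm of all cells, and typically begin with a run of pyrimidines that ties their translation to growth signals. *Malat1* is a long non-coding RNA that is kept in the nucleus, and it is among the most abundant transcripts in most single-cell libraries of brain. *Kif1a* encodes a kinesin motor that carries synaptic vesicle precursors and dense core vesicles along axons. Newborn striatal neurons are growing axons and dendrites at P3, when striatal astrocytes are still immature and in part dividing.

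All 90 cells came from P3. Replicate 1 held 32 of them, replicate 2 held 33 and replicate 3 held 25. These were 1.27% (95% Wilson interval 0.903 to 1.79), 0.908% (0.647 to 1.27) and 0.496% (0.336 to 0.731) of the cells kept in the 3 libraries. Intervals here and below cover counting error only. The lowest and highest shares lay outside each other's interval, so that the libraries differed by more than counting error. At 3m the cluster held 0 of 3185 cells. The upper ends of the 95% Wilson intervals of the 3 libraries at 3m were 0.477%, 0.274% and 0.388%. Of the 90 barcode sequences 1 was also found in another library, while 37 sequences were shared between libraries in the whole series. The total counts of the 3 P3 libraries ranged from 32193875 to 37795021 UMIs (unique molecular identifiers, each counting 1 captured transcript), and LOW_20 contributed 297349, 304449 and 172224 of them.

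The cells of LOW_20 were deeply sampled but held few genes. Median UMIs per cell were 8471, 8914 and 5867 in the 3 libraries, a mean of 7751 ± 1646 (SD, n = 3). All other P3 cells together had a median of 7043.5. Median gene number was nevertheless only 680, 762 and 607, against 2665.5 genes in the other P3 cells, and 26 of the 90 cells held fewer than 600 genes, close to the limit of 500 genes that the authors set for keeping a cell. A LOW_20 cell thus had a median of 10.3 UMIs for each gene detected, while medians of the other clusters ran from 1.45 in the astrocyte cluster AST_P3_4 to 4.94 in the endothelial cluster END_7. To compare gene number at 1 depth, each cell was thinned at random to 1000 UMIs. LOW_20 cells then held a median of 244 genes and the other clusters 581 (microglial cluster MIC_16) to 719.5 (AST_P3_19). The gap was smaller when each cell was thinned to 500 UMIs outside ribosomal protein and mitochondrial genes, with 223.5 genes in LOW_20 and 355 to 409.5 in the others. In the plot of UMIs against genes, LOW_20 lies below the band that the other P3 cells form.

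**Figure D1:**
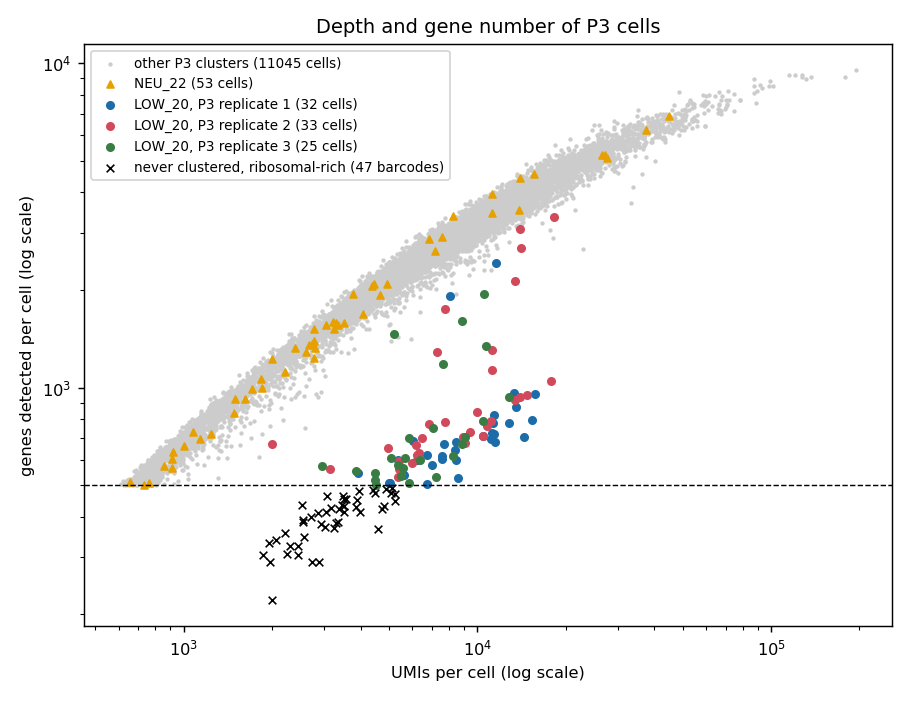
UMIs per cell (horizontal axis, log scale) against genes detected per cell (vertical axis, log scale) for annotated P3 cells: grey points are other clusters, orange triangles the neuronal cluster NEU_22 and coloured points the 90 LOW_20 cells by library. Crosses are 47 barcodes that were never clustered (described further on), and the dashed line marks 500 genes. LOW_20 has 10.3 UMIs per gene at the median and lies under the band of other cells, and the crosses continue it below 500 genes.

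Ribosomal protein mRNA accounted for most of what was counted in these cells. Of a LOW_20 cell's UMIs, a median of 68.4%, 64.3% and 62.9% in the 3 libraries fell on cytosolic ribosomal protein genes. The cluster with the next largest share, MIC_16, had a median of 23.6%, and the lowest was 5.87% (AST_P3_15). Across single LOW_20 cells the share ran from 35.5% to 73.9%. At least 40% was reached by 87 of the 90 cells but by only 12 of the 11098 other P3 cells, 10 of them in the endothelial cluster END_13 and the remaining 2 in MIC_16. Those 12 cells held 0 *Kif1a* UMIs. The mitochondrially encoded share was low, with medians of 0.388%, 0.589% and 0.517% by library, while those of the other clusters lay between 0.849% and 2.97%. Summed over the cluster, however, mitochondrially encoded transcripts stood at 17209, 11660 and 12664 CPM (UMIs scaled to a total of 1000000 for the cluster in that library), within the range of the other clusters (10894 to 33824).

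*Malat1* RNA was nearly missing. It had 0 UMIs in 55 of the 90 cells and at most 3 in 82 of them (31, 29 and 22 by library). Its level was 239, 1859 and 1034 CPM in the 3 libraries, all below the lowest other cluster (END_7, 7592 CPM) and far from the highest (AST_P3_15, 73961 CPM). The size of this gap depended on scaling. For pooled LOW_20 the log2 ratio to the lowest other cluster was -2.84 in CPM and -1.70 with totals without ribosomal protein and mitochondrial genes. It was only -0.70 with TMM and -0.25 with RLE factors (scalings described further on), under which single libraries were not compared. When cells were thinned to 1000 UMIs, 86.7% of LOW_20 cells had none (95% Wilson interval 78.1 to 92.2), and no other cluster exceeded 15.7% (END_7). Of a list of 7 nuclear-enriched non-coding RNAs, 3 had any UMI in LOW_20. *Meg3* had 4 UMIs, and *Snhg11*, *Neat1*, *Miat* and *Kcnq1ot1* had 0. The summed level of that list in pooled LOW_20 was below each of the 16 other clusters whichever of 4 scalings was used.

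**Figure D2:**
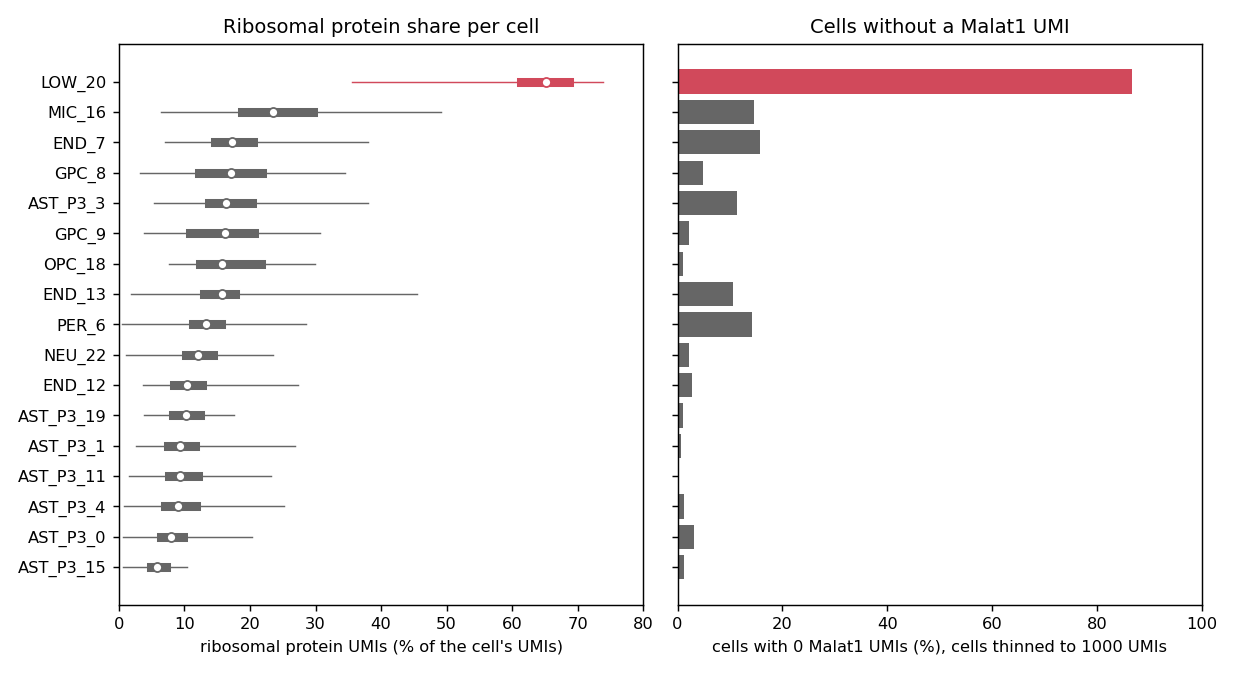
Left, share of each cell's UMIs on ribosomal protein genes (percent) in the 17 P3 clusters: circles are medians over cells, thick bars the interquartile range and thin lines the range. Right, percent of cells with 0 *Malat1* UMIs after thinning to 1000 UMIs, clusters in the same order. LOW_20 (red) stands at a median of 65.2% ribosomal protein and at 86.7% of cells without *Malat1*, above each other cluster on both measures.

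Genes were next set against every other P3 cluster at once. A gene was counted as higher if its CPM + 5 in LOW_20 was at least 2 times that of each of the 16 clusters, with at least 10 UMIs and with all 3 libraries above every cluster, and as lower by the mirror of this rule. Because the clusters were made from the expression of these same cells, the counts are a description and carry no test. Of 10812 genes with at least 20 CPM in LOW_20 or another cluster, 86 were higher (0.795%) and 3618 were lower (33.5%). Cytosolic ribosomal proteins made up 47 of the higher genes, predicted or unnamed genes 9, and other named genes 30. The share of higher genes among both kinds, 2.32%, depended strongly on scaling. CPM sum to a fixed total in each cluster, and ribosomal proteins took 627909 CPM in LOW_20. The median log2 ratio of all tested genes to the other P3 cells was -1.80 in CPM, -1.38 with totals that left out ribosomal protein and mitochondrial genes, -0.75 with TMM factors and -0.54 with RLE factors (2 estimators of library scaling that down-weight or ignore dominant genes). Higher genes then rose to 246, 484 and 570 and were 10.4%, 40.9% and 45.4% of both kinds, and the 86 genes were contained in each of these larger sets. The values that follow are in CPM, which gives the smallest number of higher genes among the 4 scalings. Just inside the 2-fold limit lay *Bola2* (log2 ratio 1.01), *Rpl10* (1.06) and *Rps21* (1.09), and just outside lay *Tma7* (0.98), *Atp5mpl* (0.97) and *1110038B12Rik* (0.95).

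The ribosomal protein genes were high together. Of 77 measured genes, 76 were above every other cluster, and 73 of them were above in all 3 libraries. By the 2-fold rule 21 of 31 small-subunit genes and 26 of 46 large-subunit genes were higher, and none was lower. The median ratio to the highest other cluster was 2.27-fold. At least 1 UMI in every one of the 90 cells was found for 72 of the genes. *Rpsa*, which encodes the small-subunit protein also known as the laminin receptor, was at 21998, 19195 and 15654 CPM by library, and the next cluster, the cycling progenitor cluster GPC_8, was at 4203 CPM. The 3 LOW_20 libraries lay well apart from it. *Rps2* and *Rps7*, further small-subunit genes, followed with log2 ratios of 2.10 and 2.06. *Rpl6* was the exception. Its level was 4059, 4838 and 6283 CPM against 4937 CPM in END_13, a log2 ratio of -0.02, and its libraries straddled that of END_13. *Rpl13*, a large-subunit gene, exceeded the highest other cluster by little (0.24). Ribosomal protein genes have many near-identical copies in the genome, so the values of single genes are uncertain where the counting left out or divided reads shared with a copy.

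A sequence feature was shared by many of these genes, the pyrimidine run near the transcription start. It was searched as a C followed by at least 7 bases that were each C or T, on the transcript strand only, from 20 bases before to 50 bases after the start of each RefSeq gene (build GRCm38.p6, 300-base entries around the start). An entry was found for 57 of the 77 ribosomal protein genes, and 43 of these 57 (75.4%) held the run. For higher ribosomal protein genes it was 26 of 33 (78.8%), for higher genes outside that family 10 of 25, for all genes tested 1674 of 8532 (19.6%) and for all entries searched 5412 of 27025 (20.03%). Entries of *Kif1a* and *Ybx1* had no such run. A C followed by at least 4 pyrimidines exactly at the annotated start was found in 12 of the 57 ribosomal protein entries (21.1%) and in 2.33% of those of tested genes. A few windows are shown so that the run can be seen where it lies, 4 from higher ribosomal protein genes and 1 from *Eef1a1*, with the run in capitals. They are at chr12:28635910-28635939 (*Rps7*, minus strand), chr10:128626481-128626510 (*Rps26*, minus strand), chrX:134585673-134585702 (*Rpl36a*, plus strand), chr11:68901581-68901610 (*Rpl26*, plus strand) and chr9:78481708-78481737 (*Eef1a1*, minus strand). Counted from the annotated start, the runs begin at base 22 (*Rps7*), 4 (*Rps26*), 27 (*Rpl36a*), 23 (*Rpl26*) and -5 (*Eef1a1*), so none of them begins at that start. A match describes the letters and does not show that the run is used.
Rps7: tgtccccaCCTCTTTTCTTCCgccacccgg
Rps26: cgccggatCCTCTTTCgagtcttggctcca
Rpl36a: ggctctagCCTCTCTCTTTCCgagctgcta
Rpl26: gtgtagttCTCTTTCCTTTTgcggccatcg
Eef1a1: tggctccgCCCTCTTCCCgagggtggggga

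Other parts of the translation machinery were higher as well, though not throughout. Of 6 elongation factor genes, *Eef1b2* and *Eef1a1* were higher and 1 was lower, where 0.795% and 33.5% of all tested genes were. The lower one was *Eef1d*, which encodes an exchange factor subunit. It was lower in CPM but above the lowest other cluster under TMM or RLE scaling. *Eef1a1*, the common form of the factor that brings aminoacyl-tRNA to the ribosome, was at 9790, 8024 and 6910 CPM against 3797 CPM in MIC_16. *Eef1b2*, its nucleotide exchange factor, was at 4476, 3547 and 3548 CPM against 1069 CPM in GPC_8. For both, each LOW_20 library exceeded every other cluster. *Tpt1*, which encodes the translationally controlled tumour protein, was at 22812, 8786 and 8042 CPM. Its libraries agreed less well, but the lowest was still above MIC_16 (3390 CPM). *Ybx1*, which encodes a cold shock protein that binds mRNA in the cytoplasm, stood out with 10082, 11549 and 11079 CPM against 2272 CPM in GPC_8, a log2 ratio of 2.26. *Eif3f* and *Eif3h*, subunits of an initiation factor, had log2 ratios of 1.18 and 1.35. Some non-coding host genes of small nucleolar RNAs were among the higher genes. *Gas5*, whose spliced RNA is cytoplasmic, was at 2549, 2582 and 2468 CPM against 659 CPM in the oligodendrocyte precursor cluster OPC_18. *Snhg6* (log2 ratio 1.72), *Zfas1* (1.60), *Snhg8* (1.28) and *Snhg12* (1.25) were of the same kind. Of the 13 tested genes named Snhg with a number, 3 were higher and 1 was lower, beside 0.795% and 33.5% of all tested genes. The other 9 met neither rule, among them *Snhg11*, which had 0 UMIs. These groups of higher genes were named after their values were seen.

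The genes farthest above the other clusters were not ribosomal. *Apc* had the largest ratio. It encodes a large protein that restrains Wnt signalling and binds microtubule ends, and it lay at 1715, 1954 and 2183 CPM against 200 CPM in NEU_22, a 9.38-fold difference on the CPM + 5 scale (log2 ratio 3.23). An *Apc* UMI was found in 89 of the 90 cells, with a median of 13 and at most 56 per cell. *Kif1a* came next (chr1:93015464-93101951, minus strand, build mm10 in GENCODE M21). It was at 1053, 969 and 888 CPM, and NEU_22, the highest other cluster, was at 137 CPM, giving a log2 ratio of 2.80. The 3 libraries lay close to each other and far from the NEU_22 libraries, which were at 156, 153 and 38.4 CPM. All 90 cells held *Kif1a*, with a median of 8 and at most 22 UMIs, and 82 of them held at least 3, a level reached by 322 of 11098 other P3 cells (2.90%). At 1000 UMIs per cell a *Kif1a* UMI remained in 62.2% of LOW_20 cells, 17.4% of NEU_22 cells and 6.05% of P3 astrocytes. The level in END_7, 3.81 CPM, was the lowest.

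*Kif1a* was given together with *Ttc9b* and *Eef1a2* as the markers of the cluster. Neither of the other 2 was set apart from NEU_22. *Ttc9b*, which encodes a tetratricopeptide repeat protein, was at 293, 414 and 406 CPM, on both sides of the 331 CPM of NEU_22, and was found in 81 cells. *Eef1a2*, the elongation factor form of neurons and muscle, was at 168, 154 and 151 CPM. Every library was under the 197 CPM of pooled NEU_22, and 64 cells held a UMI. By library NEU_22 was at 191, 356 and 365 CPM for *Ttc9b* and at 104.3, 216 and 211 CPM for *Eef1a2*, so both clusters overlapped for both genes. Against all other P3 cells together the pair had log2 ratios of 3.99 and 4.72, so they separated LOW_20 and NEU_22 from the rest of the P3 cells rather than LOW_20 alone. Under TMM or RLE scaling both came out above NEU_22.

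**Figure D3:**
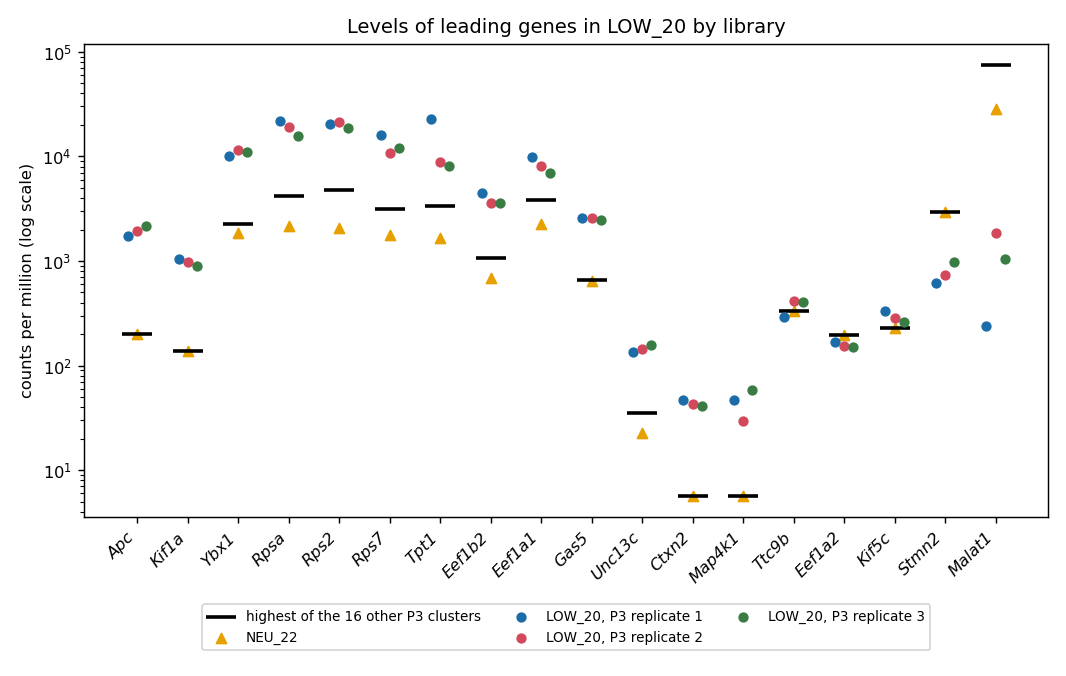
Level in CPM (log scale) of 18 genes in each of the 3 LOW_20 libraries (coloured points), in NEU_22 (triangles) and in the highest of the 16 other P3 clusters (black bars). From *Apc* to *Map4k1* all 3 LOW_20 points are above the black bar, *Ttc9b* and *Eef1a2* sit at the level of NEU_22, and *Malat1* is at 239 to 1859 CPM against 73961 CPM.

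A small set of neuronal genes was measured in LOW_20 at a high level, but most neuron markers were not. The 10 named genes with the largest ratio to all other P3 cells were *Stmn2*, *Eef1a2*, *Kif1a*, *Kif5c*, *Fabp3*, *Unc13c*, *Pcp4*, *Apc*, *Ttc9b* and *Serp2*. For 9 of these 10 the highest other cluster was NEU_22. *Stmn2*, which encodes a microtubule regulator of growing axons, was at 615, 736 and 970 CPM and was found in 88 cells, while NEU_22 had 2913 CPM. By library NEU_22 stood at 1008, 3179 and 3786 CPM, so *Stmn2* was lower in all 3 libraries of LOW_20, although it passed the pooled level of NEU_22 under TMM or RLE scaling. *Pcp4*, which encodes a calmodulin regulator of striatal neurons, was at 589, 611 and 674 CPM against 7719 CPM in pooled NEU_22. That pooled level came from replicate 2, since the NEU_22 libraries were at 261, 11096 and 307 CPM. Without replicate 2 the log2 ratio of *Pcp4* to the highest other cluster was 1.12. *Serp2*, which encodes an endoplasmic reticulum stress-associated protein, was at 471, 486 and 569 CPM against 262 CPM in NEU_22. *Kif5c*, a neuronal kinesin heavy chain, was at 333, 286 and 261 CPM against 228 CPM. *Unc13c*, a vesicle priming protein, was the only one of the 10 besides *Apc* and *Kif1a* that met the rule for higher genes, at 135, 145 and 157 CPM against 35.5 CPM in the pericyte cluster PER_6. *Ctxn2*, which encodes a small membrane protein of the cortexin family, was higher at 47.1, 42.7 and 40.6 CPM. So was *Map4k1*, a kinase best known from blood cells, at 47.1, 29.6 and 58.1 CPM. The next cluster stood at 5.70 CPM for both, which rests on few molecules. *Trak2* (log2 ratio 1.30), an adaptor that links mitochondria to kinesin, and *Gng13* (1.33), a G protein gamma subunit, were also higher.

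While 0.795% of all tested genes were higher and 33.5% lower, none of the 16 pan-neuronal markers examined met the rule in either direction. Of these markers 15 had a UMI. Their summed level was 1026, 1097 and 1405 CPM by library against 9420 CPM in NEU_22 (4135, 10541 and 10069 CPM by library), and the libraries of both clusters did not overlap. The gap depended on scaling, with 5388 in LOW_20 and 7092 in NEU_22 under TMM and 6774 and 8277 under RLE. The level of pooled LOW_20, 1138 CPM, was close to the 1132 CPM of OPC_18, which lay between its libraries. *Stmn2* alone held 65.2% of the UMIs of this list in LOW_20 and 30.9% in NEU_22. With *Gap43*, a growth cone protein, and *Tubb3*, neuronal tubulin, it held 87.3%. *Tubb3* was at 131, 92.0 and 128 CPM against 1285 CPM in NEU_22. *Snap25*, a core part of the vesicle fusion machinery, had 2 UMIs in 1 cell, and *Nefm*, a neurofilament subunit, had 0.

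Of 23 synaptic vesicle genes 18 had a UMI, 0 were higher and 1 was lower, where 0.795% and 33.5% of all tested genes were, and the list summed to 124, 184 and 238 CPM against 3614 CPM in NEU_22. *Rab3c*, a vesicle GTPase, was found in 35 cells. Of 15 channel and pump genes, 7 had a UMI and 2 were lower, again beside 33.5% of all tested genes. They summed to 26.9, 55.8 and 58.1 CPM against 2049 CPM in NEU_22 and at least 133 CPM in every other cluster. Under TMM and RLE scaling 13 and 12 of the 16 clusters were above LOW_20 for this list. Markers of striatal projection neurons stood at 40.4, 95.3 and 163 CPM against 2391 CPM, and those of GABAergic interneurons at 50.4, 19.7 and 40.6 CPM against 827 CPM. These 4 lists were below NEU_22 under each scaling. The postsynaptic list (111, 131 and 238 CPM against 1548) was too, whereas neuroblast markers (837, 532 and 679 against 4481) reached the level of NEU_22 with RLE factors and cytoskeletal genes (4187, 4122 and 4366 against 22070) passed it with TMM or RLE factors. For 17 motor and transport genes the sums were 1984, 1922 and 1684 CPM against 2448 CPM in NEU_22, a difference that turned around under the other 3 scalings. *Kif1a* was the only higher gene of that list and 4 of the 17 were lower, beside 0.795% and 33.5% of all tested genes. The lower ones were *Kif5b*, the ubiquitous kinesin, *Kif3b*, a kinesin-2 motor, *Dync1h1*, the dynein heavy chain, and *Dctn1*, a dynactin subunit. Under TMM or RLE scaling *Kif5b* rose above the lowest other cluster.

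**Figure D4:**
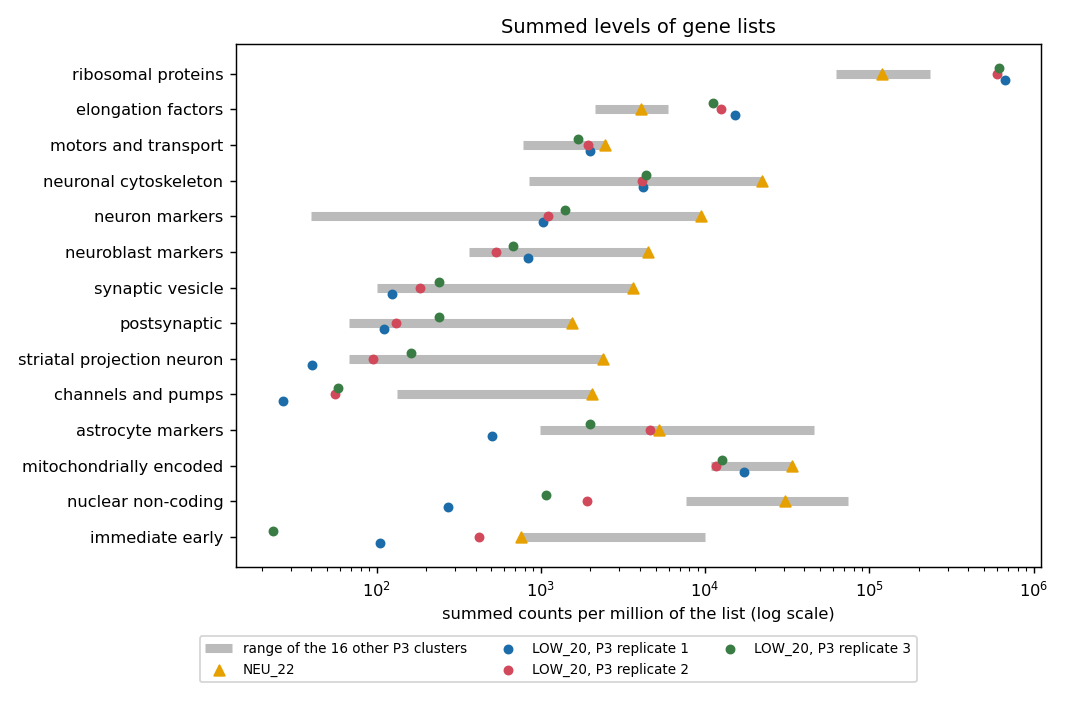
Summed CPM (log scale) of 14 gene lists in each of the 3 LOW_20 libraries (coloured points), in NEU_22 (triangles) and over the 16 other P3 clusters (grey bars, lowest to highest). The LOW_20 libraries are right of the grey bar for ribosomal proteins and elongation factors, left of it for channels, nuclear non-coding RNAs and immediate early genes, and well below NEU_22 for neuron markers.

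The lower genes were many, and most rested on small counts. Of the 3618, 595 had 0 UMIs in LOW_20 and 1967 had at most 3, the latter equal to 3.88 CPM or less, while the lowest other cluster stood at a median of 23.5 CPM over all 3618. The count of lower genes fell to 698 with TMM and 686 with RLE factors, so the size of this group depended on the scaling. *Dnajb11*, a chaperone cofactor of the endoplasmic reticulum, had 0 UMIs where the lowest other cluster was at 75.9 CPM, which put LOW_20 at least 19.6-fold lower on a floor of 3 UMIs over the cluster. *Wdr33*, which takes part in mRNA polyadenylation, had 0 as well. *Atp2a2*, the calcium pump of the endoplasmic reticulum, and *Nono*, an RNA-binding protein of the nucleus, had 1 UMI each. *Rpn1*, a subunit of the oligosaccharyltransferase, had 3. *Tm9sf3*, a membrane protein of the secretory pathway, and *Atrx*, a chromatin remodeller, had 4 each, *Luc7l2*, a splicing factor, and *Eif5b*, an initiation factor, 7 each, and *Sf3b2*, a spliceosome subunit, 8. These 10 genes, the named ones with the smallest ratio to the lowest other cluster, stayed at less than 0.5 times that cluster under all 4 scalings. Of 97 nuclear genes of the respiratory chain, 2 were higher and 14 lower, beside 0.795% and 33.5% of all tested genes. Their summed level in LOW_20, 68882 CPM, was below NEU_22 (70763 CPM) and above the 15 other clusters, and it was above all 16 under the other 3 scalings. The higher ones were *Cox6a1* (log2 ratio 1.45), a subunit of cytochrome oxidase, and *Ndufb9* (1.32), a subunit of complex I. Of 9 immediate early genes 8 had a UMI and 4 were lower, beside the 33.5% of all tested genes. Their sum was 104.3, 420 and 23.2 CPM against 755 CPM in pooled NEU_22, the lowest other cluster. The NEU_22 libraries stood at 2554, 257 and 1076 CPM, so that the clusters overlapped, and LOW_20 was above NEU_22 under TMM (997 against 569) and RLE (1253 against 664).

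Markers of other lineages were sought next. The 12 astrocyte markers summed to 505, 4618 and 2003 CPM, against 46218 CPM in AST_P3_0. The libraries differed widely, the list standing at 1054 CPM without replicate 2 and 3673 CPM without replicate 1, and the astrocyte signal came from few cells. Of all astrocyte-list UMIs in LOW_20, 81.3% lay in the 16 cells with more than 1000 genes (2, 9 and 5 by library). At least 20 such UMIs were counted in 9 cells, each with over 1000 genes, whereas the median cell had 4.5. *Fabp7*, a fatty acid binding protein of immature astroglia, was at 313, 2552 and 1097 CPM. *Slc1a3*, the glutamate transporter GLAST, had UMIs in 9 cells. Oligodendrocyte precursor markers had 51 UMIs in all, cycling markers 20, mature oligodendrocyte markers 41, mural markers 55, endothelial markers 14 and microglial markers 2, of 774022 UMIs in the cluster. Mature oligodendrocyte markers, at 53.0 CPM, were above every other cluster but OPC_18 (333 CPM), with MIC_16 next at 18.9 CPM. They were mostly *Mbp*, a myelin protein gene, which had 34 UMIs in 8 cells and up to 18 in 1 cell. Of the 10 microglial markers 8 were at 0. Blood markers were at 8804 CPM in replicate 1 and at 0 in the others. They came from 1 cell, in which haemoglobin made up 38.96% and ribosomal proteins 40.3% of 6710 UMIs, and which had 1 *Kif1a* UMI and 0 *Malat1* UMIs.

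Markers of 2 lineages in 1 cell were counted after thinning to 1000 UMIs, with at least 2 UMIs of each list. Of the 90 LOW_20 cells, 25 had neuron markers (27.8%), 23 had astrocyte markers (25.6%) and 7 had both (7.78%, 95% Wilson interval 3.82 to 15.2). In NEU_22, where 46 cells were deep enough, 42 had neuron markers and 11 had both (23.9%, 13.9 to 37.9). In P3 astrocyte clusters, both were found in 281 of 7237 cells (3.88%, 3.46 to 4.35). At the same depth, astrocyte markers were also found in 19.8% of END_7 and 13.8% of MIC_16 cells, which should lack them, and the astrocyte share of LOW_20 is to be read against that background. Since ribosomal proteins took a median of 65.2% of the UMIs of a LOW_20 cell, thinning to 1000 UMIs did not match the depth on other genes. Thinned to 500 UMIs outside ribosomal protein and mitochondrial genes, 52.2% of LOW_20 cells had neuron markers and 26.7% astrocyte markers, and 7.78% had both (3.82 to 15.2). At that depth both were found in 15.1% of NEU_22 cells (7.85 to 27.1) and 1.35% of P3 astrocytes (1.12 to 1.63), and astrocyte markers in 11.1% of END_7 cells. Neuron markers were found there in 0.496% of END_7 cells and 0 of 124 MIC_16 cells. When thinned to 1000 UMIs of all genes, the values were 0.992% of END_7 cells and 0 of 123 MIC_16 cells. Neuron markers together with those of oligodendrocyte precursors, microglia or endothelium were found in 0 LOW_20 cells at both of these depths. At full depth 76 of the 90 cells had both neuron and astrocyte markers. Doublets were not removed, and their part in these counts was not tested.

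The 16 cells with more than 1000 genes differed from the other 74 in more than the astrocyte list. They had a median of 10963.5 UMIs and 1676.5 genes, 49.1% ribosomal protein, 4448 CPM of *Malat1* and 8715 CPM of astrocyte markers. The other 74 had 7155 UMIs and 658.5 genes, 66.8% ribosomal protein, 43.6 CPM of *Malat1* and 595 CPM of astrocyte markers. *Kif1a* was present in both at 693 and 1069 CPM, as were *Stmn2* at 688 and 758 CPM and *Ttc9b* at 366 and 365 CPM. *Slc1a3* was at 310 CPM in the 16 cells and at 1.68 CPM in the 74. Without the 16 cells, 92 genes were higher, and the neuron list stood at 1054 CPM. The genes leading LOW_20 were thus measured in both groups of cells, while most of the *Malat1* and astrocyte counts lay in the 16. This division was made after the values were seen.

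Over the 10812 genes LOW_20 correlated best with astrocyte clusters, with a Spearman correlation of 0.740 for AST_P3_3, 0.719 for AST_P3_0 and 0.718 for AST_P3_1. NEU_22 followed at 0.709, and MIC_16 was lowest at 0.515. Leaving out ribosomal protein and mitochondrial genes gave 0.734 for AST_P3_3 and 0.701 for NEU_22. The LOW_20 profile includes the 16 cells of over 1000 genes with their astrocyte counts. The points are genes, not replicates, and the clusters differ in depth, so the order of close values carries little weight.

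Barcodes with few genes per UMI and a high ribosomal protein share were also present below the authors' limit of 500 genes, where they were never clustered. At P3, 706 barcodes had at most 500 genes, and 47 of them (11, 17 and 19 by library) had at least 5 UMIs per gene and at least 40% ribosomal protein, limits chosen after the data were seen. Their median was 3235 UMIs on 414 genes, with 67.1% ribosomal protein and 3.23% mitochondrial UMIs, and 43 of the 47 had 0 *Malat1* UMIs. The mitochondrial median was above that of LOW_20 (0.523%) and above those of the other clusters (0.849% to 2.97%). *Kif1a*, which the limits did not use, was at 1880, 1898 and 981 CPM in their 3 libraries and was found in 45 of the 47. *Apc* was at 2038, 2188 and 1734 CPM. *Stmn2* (703 CPM), *Ttc9b* (326 CPM) and *Eef1a2* (153 CPM) were near their LOW_20 levels of 742, 366 and 159 CPM, while *Slc1a3* had 0 UMIs. Of the 39 higher genes outside the ribosomal protein list, 39 were above every P3 cluster but LOW_20 in these barcodes too, and 31 of them were so by at least 2-fold. Genes that are not among the 39 could reach 2-fold too. *Bc1* was at 115 CPM in these barcodes against 45.6 CPM in the highest P3 cluster but LOW_20. The share of all 10735 tested genes outside that list that did so is not given. Neither count thus has a background, and neither shows a likeness particular to the 39 genes. The 649 barcodes with fewer UMIs per gene held 74.9 CPM of *Kif1a* and 43969 CPM of *Malat1*. Over 10722 genes the 47 barcodes had a Spearman correlation of 0.588 with LOW_20, 0.488 with NEU_22 and 0.441 with AST_P3_3. At 3m, 0 of 347 barcodes with at most 500 genes met both limits.

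**Figure D5:**
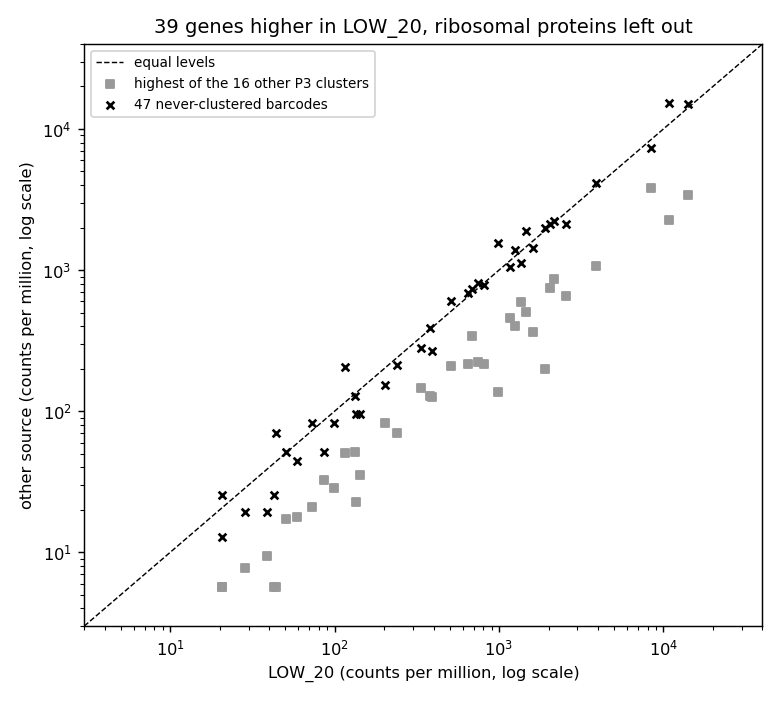
Level in LOW_20 (horizontal axis, CPM, log scale) of the 39 higher genes outside the ribosomal protein list against their level in the 47 never-clustered P3 barcodes (crosses) and in the highest of the 16 other P3 clusters (grey squares), both on the vertical axis (CPM, log scale). The crosses lie along the line of equal levels, and each grey square lies below the cross of its gene.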

How the data were processed

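Single-cell RNA-Seq libraries were prepared from ACSA2-enriched striatal cells, 3 at P3 and 3 at 3m. The deposited table held raw UMI counts for 32285 genes and 16690 barcodes. Reads had been aligned by the authors to mm10 and turned into UMI counts with Cell Ranger, and then merged the libraries. The submitters' processing notes also name Seurat 3.1.1. Barcodes of at most 500 genes or at least 10% mitochondrial UMIs had been dropped by the authors, and the rest were normalised by SCTransform and divided into 24 clusters at resolution 0.6. Their cluster names were taken as deposited. The deposited UMAP coordinates (a score with no unit) and pseudotime were not used. Doublets were not removed.

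From the counts, UMIs were summed per P3 cluster and library and scaled to CPM with numpy 2.4.6 and pandas 2.3.3. A pseudocount of 5 CPM entered each ratio. Cells were thinned without replacement with a fixed seed. TMM and RLE factors came from edgeR 4.0.16 in R 4.3.3, which was used for scaling only. No p-value was computed, since clusters were made from the same genes. The libraries are separate preparations. LOW_20 and the gene lists were chosen with earlier results of these data known. Genes were named as the markers given for the cluster, the 20 higher genes with the largest ratio, the 10 with the largest ratio to all other P3 cells, the 10 lower genes with the smallest ratio, and members of the lists, leaving out predicted genes. Alternatives were other scalings, pseudocounts, filters and thinning depths, and leaving out each library. The rule for higher and lower genes was tried on simulated data in which the other clusters shared a single profile. No shift in ribosomal protein share was built in, so the simulation does not show how the rule behaves with the composition found here. Sequences are from RefSeq.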

Additional observations from a re-analysis of the deposited data

How the results depend on the processing

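The values rest on 774022 UMIs in 90 cells, so genes near 3 UMIs were not resolved. No paired analysis was possible because the results come from no test and the cluster had no cells at 3m to set against P3. This concerns the ages only. Within P3, LOW_20 and the other clusters came from the same libraries. The rule for higher and lower genes did not use this pairing, since it set each LOW_20 library against clusters pooled over libraries. *Pcp4* was below pooled NEU_22 in LOW_20, but above NEU_22 within replicates 1 and 3. The count of higher genes (86) was 484 with TMM factors, 570 with RLE factors, 246 with totals free of ribosomal protein and mitochondrial genes, 11 at a ratio of 4, 47 in cells of over 1000 genes and under 5% mitochondrial UMIs and 74 to 107 with 1 library left out. The count of lower genes (3618) was then 698, 686, 2127, 893, 1402 and 3031 to 4077, and it was 1349 with a pseudocount of 20 CPM. With TMM factors, RLE factors, the reduced totals and the stricter filter on cells in turn, neuron markers (1138 CPM) stood at 5388, 6774, 3179 and 1421, astrocyte markers (2456 CPM) at 11625, 14618, 6859 and 8715, and ribosomal proteins (627909 CPM) at 2972110, 3737160, 1753560 and 497142. Without the 16 cells of over 1000 genes, an alternative chosen after seeing the data, ribosomal proteins were at 666787 CPM. The stricter filter left those 16 cells, 0.162% of P3 cells (0.892%), with a mean of the library medians of 10704 UMIs (7751). Alternatives kept the 16 clusters, except END_12 without replicate 3, where 3 of its 349 cells were left, and the one that took all other clusters of at least 10 P3 cells (85 higher, 2618 lower). Cells with both neuron and astrocyte markers (7.78%) were 21.1% at 2000 UMIs, 84.4% without thinning, 31.1% at 1 UMI of each list and 0% at 4. The cause of these changes was not tested. The 20 named higher genes kept a log2 ratio above 0 in 240 of 240 values, and the 10 named lower genes did not change sign. The size of the ratios was less stable. Of the 240 values 3 fell under 1, for *Map4k1* (0.52), *Ctxn2* (0.89) and *Rplp1* (0.99). Among 444 log2 ratios of 37 named genes, higher, lower or neither, 236 moved by at least the SD between libraries. Ratios of *Kif5c*, *Ttc9b*, *Eef1a2*, *Fabp3*, *Stmn2* and *Pcp4*, which met neither rule, did. At 1000 UMIs per cell 80 genes were higher, 69 of them among the 86.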

Other observations

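A cell in which ribosomal proteins reached 40% was not by that alone like LOW_20. The 10 such cells of the endothelial cluster END_13 had a median of 9345 UMIs on 2268 genes, the 2 of MIC_16 had 2388 UMIs on 773 genes and 2 cells at 3m that carried the name AST_P3_3 had 2044.5 UMIs on 671 genes, and all 14 held 0 *Kif1a* UMIs.

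Among P3 barcodes with at most 500 genes, 57 had at least 5 UMIs per gene. Besides the 47 rich in ribosomal protein UMIs, 5 of these held at least 20% haemoglobin, with a median of 9849 UMIs on 100 genes and 0 *Kif1a* UMIs. At least 10% mitochondrial UMIs were found in 11 of the 57, which lay in replicates 1 and 2 (7 and 4 barcodes), had 53.6% ribosomal protein UMIs at the median and stood at 1104 CPM of *Kif1a*. The 6 barcodes that were both rich in ribosomal protein UMIs and over this mitochondrial limit are counted in both groups. At 3m, 48 of 49 barcodes with at least 5 UMIs per gene were over the mitochondrial limit, and ribosomal proteins were at 0.990% there.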
